A study of Mus musculus with 3 samples.

Results

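The genes described here carry the names of DEAD and DEAH box RNA helicases, and their RNA was measured on the chromatin of mouse macrophages. They were taken by symbol: a gene named Ddx or Dhx followed by a number and at most 1 letter, with at least 1 protein-coding transcript, outside chromosomes X and Y and leaving out Ddx58 and Dhx58. Of 53 symbols of this form, 49 genes were kept, 34 named Ddx and 15 named Dhx, out of 21951 protein-coding genes and 55536 annotated genes. The cells were bone-marrow-derived macrophages (BMDM), primary cells of C57BL/6J mice. All 3 libraries belong to 1 group: cells were given 100 ng/ml Lipid A, which TLR4 senses as part of bacterial lipopolysaccharide, for 12 h, were kept without it for 12 h, and were given 100 ng/ml again for 15 min. RNA of the chromatin fraction was depleted of ribosomal RNA and sequenced, from 1000, 250 and 500 ng in replicates 1, 2 and 3. No untreated group was analysed here, so the values are levels in restimulated cells and show no response to Lipid A. The labels name 1 donor for all 3 libraries, so the spread between replicates may be partly technical. The age and sex of the animals were not collected.

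DEAD and DEAH box proteins use ATP to open short RNA duplexes or to strip proteins from RNA, and are named after the amino acids of a conserved ATPase motif. Different members act at nearly every step in the life of an RNA: transcription, splicing, ribosome assembly, export through the nuclear pore, translation and decay. RNA bound to chromatin holds transcripts still being made and processed, so a level here is not the level of the finished mRNA in the cytoplasm.

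The libraries held 14609979, 17423948 and 24162551 expected counts. Levels are in TPM, a count per effective length scaled to the same total in each library. They come from the table made from alignments; where the table made directly from reads is used, it is called read-based. All 8 macrophage markers checked stood at 35.4 TPM or more, and the lists for neutrophils, dendritic cells, lymphocytes, stromal and erythroid cells had medians of at most 0.31 on the log2(TPM + 1) scale. In the read-based table the dendritic list had a median of 1.03. Single genes of these lists stood higher: the erythroid gene Alas2 had 11.9, 8.44 and 11.0 TPM. Means in the read-based table were 15.2 TPM for the lymphocyte gene Cd3d and 4.61 TPM for the neutrophil gene Cxcr2. Replicate 1 differed from the others in interferon-stimulated genes: 19 of 19 listed protein-coding genes were highest there, with a median difference of 0.53 (log2) from the mean of replicates 2 and 3.

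Nearly all the helicase genes were measured on chromatin. Of the 49 genes, 47 had a mean expected count of at least 10 (called detected here), and 46 had a mean of at least 1 TPM, against 48.5% of all protein-coding genes. Together they held 1.06 ± 0.01% (SD, n = 3) of the counts of protein-coding genes. This share was carried by few genes: Ddx5 held 27.4 ± 0.7% of the members' counts, Ddx60 24.5 ± 3.26% and Ddx17 14.1 ± 1.2%, and all 3 together 66.0 ± 2.25%. The median over the 49 genes was 4.08 ± 0.16 on the log2(TPM + 1) scale, against 0.80 over all protein-coding genes and 3.66 ± 0.03 over those of at least 1 TPM. Neighbouring genes in the order of levels often could not be separated: of 46 neighbouring pairs among the detected genes, 32 overlapped in their library values. Listed helicases with other names, such as Eif4a1 and Upf1, had a median of 4.85 ± 0.12, with 11 of 13 detected. At the top of the alignment-based table, Ddx5, Ddx60, Ddx17, Ddx39b and Dhx15 followed each other with no overlap between neighbours. The read-based table gave another order: the mean of Ddx60 (784 TPM) was above that of Ddx5 (744 TPM), with overlapping libraries, and Dhx15 (99.2 TPM) was below Dhx9 (113 TPM) and level with Dhx16 (99.3 TPM).

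**Figure D1:**
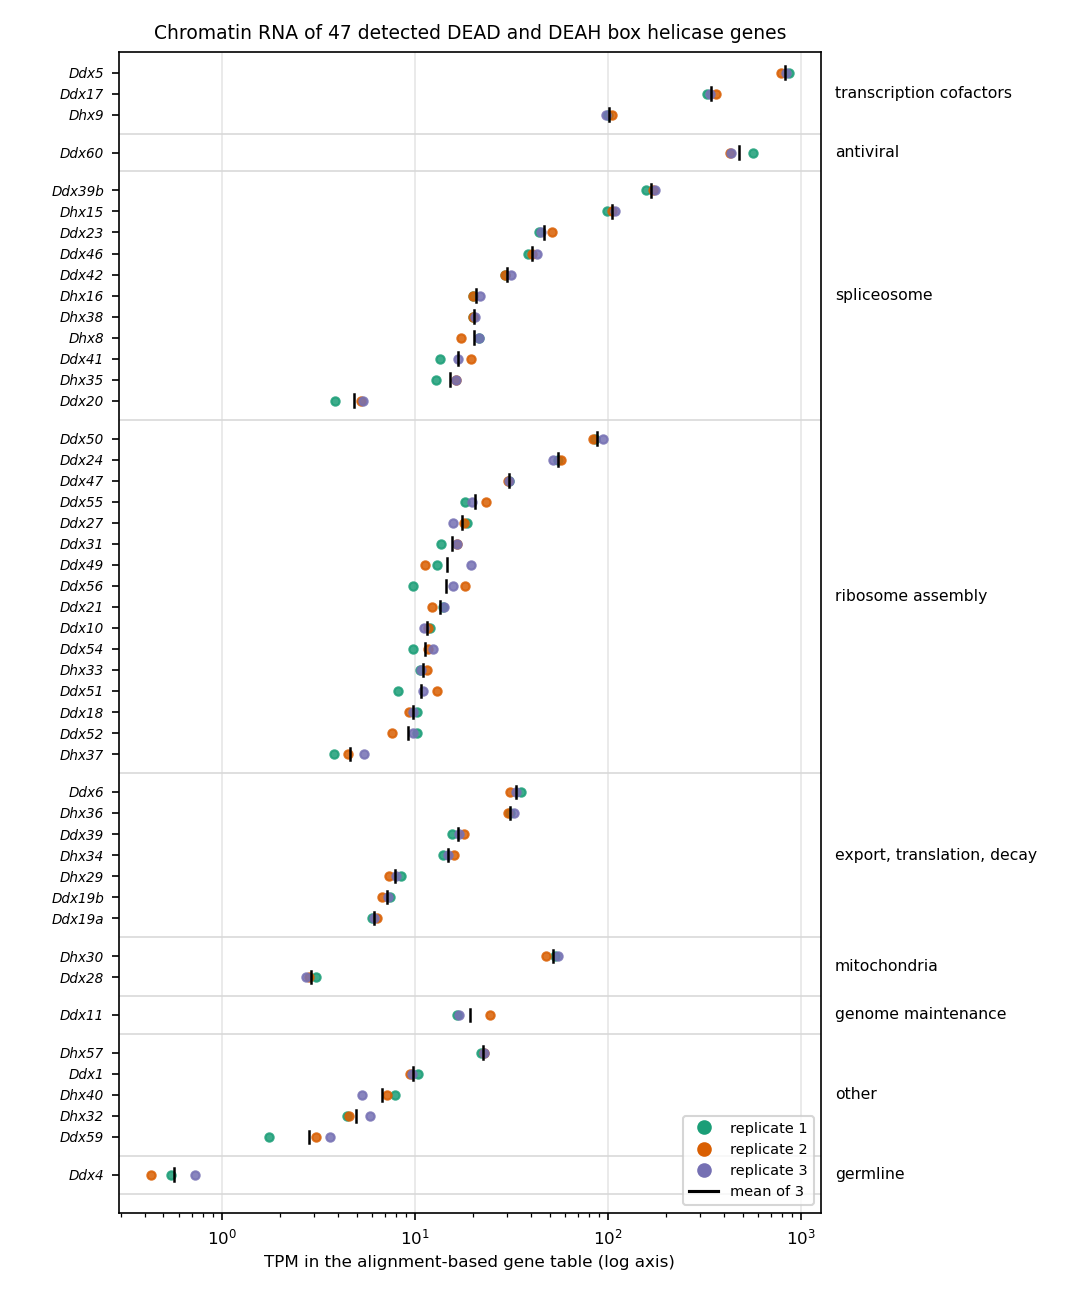
TPM of each detected helicase gene (log axis), grouped by role; coloured points are the 3 libraries and the black bar is their mean. Ddx5, at 829 TPM on average, and Ddx4, at 0.57 TPM, mark the ends of the range, and the Ddx60 point of replicate 1 (567 TPM) lies apart from the other 2 libraries.

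The 3 members known as cofactors of transcription and RNA processing were all abundant, with a median of 8.42 ± 0.09 on the log2(TPM + 1) scale. Ddx5, a coregulator that also takes part in splicing and in microRNA processing, stood at 865, 787 and 836 TPM in replicates 1, 2 and 3 (829 ± 39.0, SD, n = 3), which ranked it 16 among all protein-coding genes. Its paralog Ddx17, which works in many of the same complexes, had 325, 364 and 336 TPM (342 ± 20.5). The libraries of the 2 genes did not overlap, and no stretch of 31 bases was common to their annotated transcripts, so no stretch of that length is ambiguous between them. Dhx9, which unwinds RNA duplexes and binds RNA polymerase II complexes, had 101, 105 and 97.3 TPM (101 ± 3.89). In the alignment-based table each of these genes varied by at most 1.12-fold between its lowest and highest library.

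In the alignment-based table, Ddx5 RNA on chromatin was assigned mostly to a form that keeps an intron. The gene lies on the minus strand of chromosome 11 (chr11:106780355-106789185, mm10). Its leading transcript, Ddx5-208, is annotated as a target of nonsense-mediated decay (NMD, the removal of mRNAs with a premature stop) and had 522, 476 and 490 TPM, or 59.8 ± 1.04% of the gene's TPM. The complete protein-coding form Ddx5-201 had 124, 107 and 144 TPM. The lowest library of Ddx5-208 lay above the highest of Ddx5-201. Ddx5-208 also led in the read-based table, with 369 ± 19.6 TPM of the gene's 744 ± 83.9 TPM. An exon of Ddx5-208 runs through intron 11 of the 12 introns of Ddx5-201, which is 1265 nt long (chr11:106782694-106783958). Counting only transcripts that span this intron, 80.9, 81.7 and 77.3% of their TPM kept it (79.9 ± 2.31%), and the read-based table gave 81.7 ± 2.13%. Another transcript, Ddx5-202, keeps the intron before it, of 82 nt, and made up 13.3 ± 3.25% of the TPM spanning that intron. The upstream border of the kept intron is shown because it tells a kept from a spliced molecule: 30 bases centred on the border, 5′ to 3′ on the gene's strand (GENCODE M21 transcript sequence), with the first 2 intron bases in capitals.
Ddx5 intron 11, upstream border: cctccagagggctagGTtagtacaaactcg
This border occurs in Ddx5-208 and not in Ddx5-201, which joins the 2 flanking exons instead. It carries the usual GT at the start of an intron. RNA in which this intron is not yet spliced has the same border, and the values do not separate it from a finished Ddx5-208.

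The same intron holds 2 annotated microRNA genes on the strand of Ddx5, Mir3064 and Gm25994 (chr11:106783171-106783271). The hairpin of Mir3064, 67 nt long (chr11:106782693-106782759, minus strand), starts 1199 nt into the intron. Its 5p mature form is shown from RefSeq (GRCm38.p6), with the seed, bases 2 to 8, in capitals.
mmu-miR-3064-5p: uCUGGCUGuuguggugugcaaa
Both microRNA genes were listed at 0 TPM in all libraries. Molecules of this length are far below the labelled fragment size range, so the libraries do not measure the mature forms. Other members that host annotated microRNAs on their own strand were Ddx39b (Mir6975 and Mir8094) and Ddx19b (Mir3473d).

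**Figure D2:**
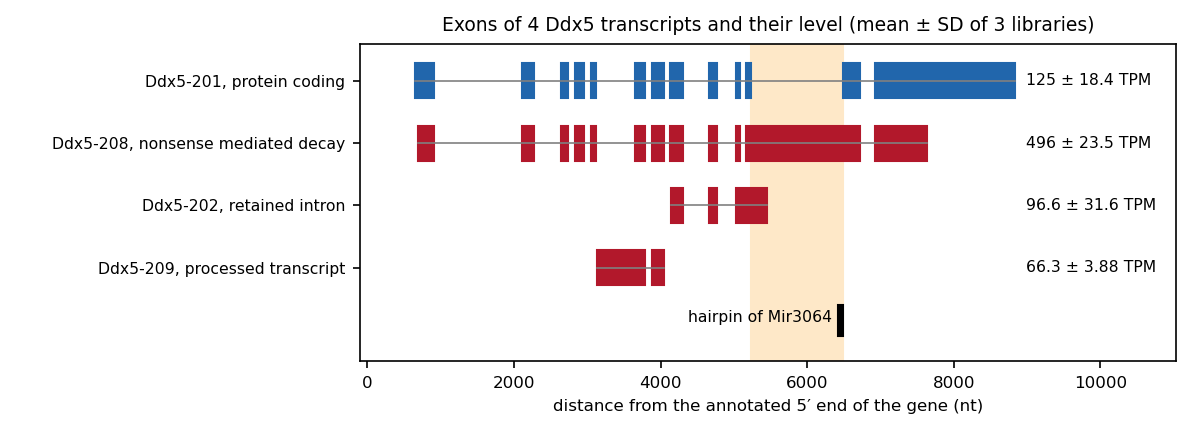
Exons (boxes) and introns (lines) of 4 Ddx5 transcripts against the distance in nt from the gene's annotated 5′ end, with each transcript's mean TPM ± SD over 3 libraries at the right. The shaded intron is spliced in Ddx5-201 (125 TPM) and lies inside an exon of Ddx5-208 (496 TPM), and the black box marks the Mir3064 hairpin at its downstream end.

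Ddx60, an interferon-induced helicase linked to antiviral defence, was second to Ddx5 in the alignment-based table and had the higher mean of the pair in the read-based table. In the first it had 567, 431 and 434 TPM in replicates 1, 2 and 3 (477 ± 77.8), and rank 40 among protein-coding genes. Replicate 1 was the high library by 0.39 on the log2(TPM + 1) scale, the library in which all 19 interferon-stimulated genes were also highest. The part of that difference between libraries in the level of Ddx60 was not tested. Replicate 1 was also the high library of Ddx60 in the read-based table (0.59) and with TMM scaling (0.38), DESeq2 scaling (0.38) and rescaled TPM (0.47). The read-based table listed it at 1012, 673 and 667 TPM, 1.64 times the alignment-based mean. Its leading transcript in the alignment-based table was the full-length Ddx60-201 (304, 223 and 229 TPM). In the read-based table it was Ddx60-204, a retained-intron transcript of 427 nt with 316, 155 and 142 TPM, which had 38.8, 31.5 and 19.4 TPM in the alignment-based table. Both tables put replicate 1 highest for each of these transcripts.

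The promoter of Ddx60 (plus strand, chr8:61927837-61928086, RefSeq, GRCm38.p6) is shown because it carries the core of the interferon-stimulated response element, GAAANNGAAA, bound by interferon regulatory factors, in 2 copies. The 250 bases before the start are printed 5′ to 3′ with both copies in capitals, 53 and 19 bases before the start.
Ddx60 promoter: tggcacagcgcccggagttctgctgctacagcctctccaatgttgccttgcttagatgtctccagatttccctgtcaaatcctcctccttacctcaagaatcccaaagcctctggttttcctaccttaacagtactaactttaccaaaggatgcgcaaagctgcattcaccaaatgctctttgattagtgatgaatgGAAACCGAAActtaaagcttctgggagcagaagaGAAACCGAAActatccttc
Searched on both strands in the 250 bases before the start, this motif was found for 2 of the 44 helicase genes with a RefSeq promoter and for 3.46% of 27025 genes. The other match was in Ddx49, 227 bases before its start, as GAAAAAGAAA. A match of letters describes the window and is no evidence of binding.
Ddx49 window (chr8:70302669-70302718, minus strand): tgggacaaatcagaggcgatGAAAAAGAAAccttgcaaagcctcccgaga
Ddx49 had its highest level in replicate 3 in the alignment-based table and in replicate 1, as Ddx60 did, in the read-based table.

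Among the other motifs searched, CCGGAAG, a core bound by many ETS transcription factors, was frequent. It occurred, on either strand, before 16 of 44 helicase genes (36.4%), against 7.83% of all genes with a promoter entry and 16.7% of 9251 detected protein-coding genes. The windows of the 6 most abundant genes that held it are shown with the match in capitals; a match on the other strand reads CTTCCGG.
Ddx5 (chr11:106789000-106789036, minus strand): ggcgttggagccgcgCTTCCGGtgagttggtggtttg
Ddx17 (chr15:79546949-79546985, minus strand): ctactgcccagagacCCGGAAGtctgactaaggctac
Ddx39b (chr17:35241707-35241743, plus strand): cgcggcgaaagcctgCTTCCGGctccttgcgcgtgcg
Dhx9 (chr1:153487735-153487771, minus strand): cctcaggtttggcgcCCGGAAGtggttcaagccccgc
Ddx50 (chr10:62651219-62651246, minus strand): cgcgaggtgcgtggcCCGGAAGtgacgc
Dhx30 (chr9:110117659-110117695, minus strand): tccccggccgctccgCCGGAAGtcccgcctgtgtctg
The match lay from 13 bases (Ddx50) to 229 bases (Ddx17) before the start in these windows. The starts are those of RefSeq, with 55 windows for the 44 genes, and some lie inside the gene as annotated in GENCODE M21. This was so for the windows of Ddx5 and Dhx30 shown here. TGACGTCA, the cyclic AMP response element, was found before 4 of the 44 genes (9.09%, against 3.1% of detected protein-coding genes): Ddx19a, Ddx49, Ddx51 and Dhx36. TATAAA was found before 3 (6.82%, against 7.84%), GGGCGG before 29 (65.9%, against 62.8%), CACGTG before 6 (13.6%, against 10.1%), and the NF-kB motif before none, against 0.346%. The windows with TATAAA, in Ddx5, Ddx17 and Ddx50, also lie inside the genes as annotated in GENCODE M21. No binding data were used here, so these shares stand beside the levels only as a description.

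The 11 members that act in the spliceosome, the machine that removes introns, were all detected, with a median of 4.47 ± 0.06 on the log2(TPM + 1) scale. Their 20 listed partners, core proteins such as Prpf8 and Sf3b1, had a median of 4.30 ± 0.11, and all 20 were at 1 TPM or more. Ddx39b, which loads onto early splicing complexes and onto mRNA for export, was the highest at 158, 171 and 175 TPM (168 ± 8.8). Dhx15, which releases the spliced-out intron from the machine, had 99.2, 106 and 109 TPM (105 ± 4.91). Ddx23, which helps the assembled machine to become active, had 43.7, 51.1 and 44.8 TPM (46.5 ± 3.97). The 3 helicases that remodel the catalytic core were at nearly the same level in the alignment-based table: Dhx16 at 20.7 ± 1.01, Dhx38 at 20.3 ± 0.257 and Dhx8 at 20.2 ± 2.36 TPM, with overlapping libraries. In the read-based table Dhx16 stood apart at 99.3 ± 27.9 TPM, against 24.2 ± 0.813 for Dhx38 and 22.8 ± 1.24 for Dhx8. Ddx20, a partner of the SMN complex that assembles spliceosomal particles, was the lowest at 3.85, 5.30 and 5.40 TPM, and replicate 1 lay below the other libraries. Ddx46, which helps the first complex to form at the branch point, had 38.6, 40.4 and 43.0 TPM, and Ddx42, a relative in the same step, 29.3, 29.2 and 31.5 TPM. Ddx41 (13.6, 19.7 and 16.8 TPM) and Dhx35 (12.9, 16.4 and 16.3 TPM) were lower, and replicate 1 was the low library of both.

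Most spliceosomal helicases were lowest in replicate 1. This was so for 9 of 11, against 37.4% of detected protein-coding genes, and none was highest there, against 36.7%. The 9 include near ties of replicates 1 and 2 in Dhx16 (20.06 and 20.08 TPM) and Dhx38 (20.09 and 20.12 TPM). Their median difference from the other libraries was -0.11 (log2), against -0.05 over the 47 detected members and 0.00 over detected protein-coding genes. Their partners had the same median, -0.11, with 13 of 20 lowest in replicate 1. For the spliceosomal helicases the read-based table gave -0.13, and TMM and DESeq2 scaling of counts gave -0.16 and -0.15. Under both scalings the detected members as a whole were nearly as low (-0.14 in each, against -0.03 over detected protein-coding genes). Those of ribosome assembly had -0.16. With TMM scaling 33 of 47 members were lowest in replicate 1, against 43.1% of detected protein-coding genes, and with DESeq2 scaling 32, against 42.5%. The median of the spliceosomal helicases was -0.03 when TPM were rescaled without short and ribosomal features, against 0.07 over detected protein-coding genes. There 6 of 11 were lowest in replicate 1, against 28.7%. No test can be made within 1 group.

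**Figure D3:**
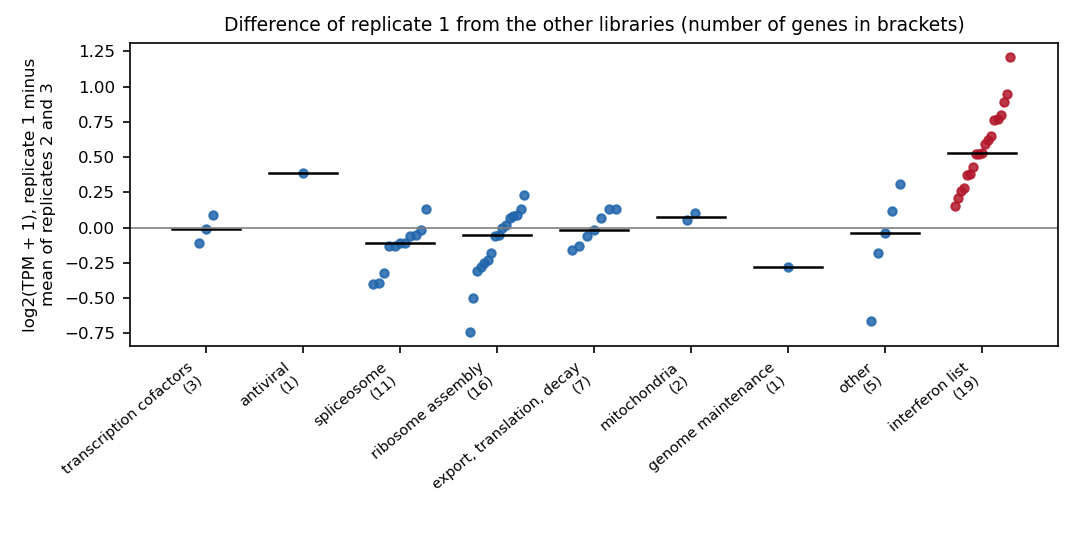
Each point is a gene: its log2(TPM + 1) in replicate 1 minus the mean of replicates 2 and 3, for the detected helicase genes by role (blue, germline left out) and for the 19 interferon-stimulated genes (red); black bars are medians. Ddx60 at 0.39 falls within the interferon genes (median 0.53), and the spliceosomal helicases have a median of -0.11.

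All 16 members of ribosome assembly in the nucleolus were detected, at a lower median of 3.84 ± 0.13 on the log2(TPM + 1) scale. Their 20 listed partners, such as Fbl, Ncl and Polr1a, had a median of 3.63 ± 0.07. Ddx50, a nucleolar helicase, was the highest at 85.5, 83.3 and 93.9 TPM (87.6 ± 5.59). Ddx24, which helps to form the large ribosomal subunit, had 55.4, 57.3 and 52.3 TPM (55.0 ± 2.53), and Ddx47, needed for early rRNA cleavage, had 30.7, 30.4 and 30.9 TPM (30.7 ± 0.217). These 3 did not overlap with each other. Dhx37, which acts on the small subunit, was the lowest at 3.84, 4.54 and 5.47 TPM. The other 12 had means from 9.24 (Ddx52) to 20.5 TPM (Ddx55). Among them, Ddx55 had 18.3, 23.4 and 19.9 TPM, Ddx27 18.6, 18.1 and 15.7 TPM, and Ddx10 12.0, 11.7 and 11.1 TPM, so no library was low for all.

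Paralogs that lie side by side differed in level. Ddx21, which links RNA polymerase I and II transcription with rRNA processing, is separated by 13613 bases from Ddx50 on the minus strand of chromosome 10. It had 14.0, 12.3 and 14.2 TPM (13.5 ± 1.05), below Ddx50 in every library, and the 2 genes shared no stretch of 31 bases. Ddx50 was mostly read from transcripts annotated to retain an intron (74.4 ± 0.741% of its TPM), as was Ddx21 (54.7 ± 0.804%). Ddx19a and Ddx19b, which release proteins from mRNA at the nuclear pore, lie 5387 bases apart on chromosome 8 and could not be separated so clearly. Ddx19a had 5.98, 6.38 and 6.18 TPM and Ddx19b 7.43, 6.74 and 7.30 TPM. The libraries did not overlap, but 945 stretches of 31 bases were common to both, 32.0% of those of Ddx19a and 14.1% of those of Ddx19b, so reads may have been divided between them with error. The read-based table reversed their order, with 8.93 ± 0.475 TPM for Ddx19a and 7.61 ± 0.26 for Ddx19b.

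The 7 members of export, translation and decay were all detected, with a median of 3.99 ± 0.09 on the log2(TPM + 1) scale, against 4.29 ± 0.08 for 17 partners. Ddx6, which represses translation and promotes removal of the mRNA cap, had 35.5, 31.2 and 33.3 TPM (33.4 ± 2.13). Dhx36, which resolves G-quadruplexes, had 31.1, 30.4 and 32.6 TPM (31.3 ± 1.11), so its libraries overlapped with those of Ddx6 in this table. Ddx39, the close relative of Ddx39b in mRNA export, had 15.5, 17.9 and 16.9 TPM (16.8 ± 1.22), far below Ddx39b in every library, and the pair shared no stretch of 31 bases. The lower members were Dhx34, a factor of nonsense-mediated decay (14.9 ± 0.961), Dhx29, which helps ribosomes to scan structured leaders (7.95 ± 0.585), and the Ddx19 pair.

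Members with tasks outside these groups covered a wide range. Dhx30, which acts in assembly of the mitochondrial ribosome, had 53.1, 47.7 and 55.4 TPM (52.1 ± 3.95), while Ddx28, in the same process, had 3.08, 2.85 and 2.75 TPM (2.89 ± 0.169). Ddx11, needed for sister chromatid cohesion, had 16.6, 24.5 and 16.9 TPM, with replicate 2 above the others. Dhx57 was at 22.1, 22.9 and 22.8 TPM and Ddx1, a part of the tRNA ligase complex, at 10.5, 9.41 and 9.69 TPM. Dhx40 was at 7.90, 7.17 and 5.32 TPM, lowest in replicate 3. Ddx59 had 1.77, 3.10 and 3.66 TPM, and its libraries overlapped with those of Ddx28. In the read-based table Ddx59, at 4.93 ± 0.361 TPM, was above Ddx28, at 2.35 ± 0.173.

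The germline helicases were the only members at or under 1 TPM. Ddx4, the Vasa protein of germ cells, passed the count minimum with 18, 17 and 39 counts, or 0.55, 0.43 and 0.73 TPM. Ddx43 had 0, 2 and 0 counts. Ddx25, a testis helicase, had 0 counts in all 3 libraries, which allows a share of up to 2.05e-05, 1.72e-05 and 1.24e-05% of the counts (3 counts of the total, counting error only).

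Helicase genes had a lower median spread between replicates than protein-coding genes as a whole. The median SD of log2(TPM + 1) over the 3 libraries was 0.095 for the 47 detected members, against 0.158 for 11745 detected protein-coding genes. The biological coefficient of variation from edgeR, which allows for counting noise, had a median of 0.125 for the members and 0.146 for those genes. The members also had the higher median level (4.13 ± 0.14 against 3.66 ± 0.03 among genes of at least 1 TPM), and the part of level in the lower spread was not tested. Among the members, 23 had an SD under 0.1 and 11 over 0.2. These numbers were not counted over all detected genes, so they describe the members only and set them apart from no other genes. Ddx47 (SD 0.01) and Dhx38 (0.02) were nearly constant. The 5 most variable were Ddx56 (0.44), Ddx49 (0.39), Ddx59 (0.39), Ddx51 (0.31) and Ddx11 (0.30). Ddx56, a nucleolar helicase of the large subunit, had 9.76, 18.2 and 15.7 TPM from 109, 204 and 282 counts. Ddx51, which acts on the same subunit, had 8.21, 13.1 and 11.1 TPM. Both were low in replicate 1 in both tables. Ddx59 was low there in the alignment-based table only, and the read-based table gave it 5.32, 4.60 and 4.87 TPM.

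Ddx49, a helicase of ribosome assembly, overlaps another expressed gene. In the alignment-based table it had 13.1, 11.3 and 19.6 TPM. Homer3, on the opposite strand, had 16.9, 15.6 and 25.6 TPM, with the same low and high libraries. The read-based table gave Ddx49 21.9, 16.7 and 19.7 TPM, with replicate 1 highest. Of the 2922 stretches of 31 bases in Ddx49 transcripts, 789 (27.0%) also lie in Homer3 transcripts on either strand. In all, 13 members overlapped a gene on the opposite strand, and for 11 of them that gene had at least 1 TPM. No source used here says if counting used strand, so reads from stretches that a gene shares with its partner on the other strand cannot be told apart. For Ddx39 and Adgre5, which shared 754 such stretches, levels were alike but the libraries ran in different order (15.4, 17.8 and 20.5 TPM for Adgre5). Ddx18 shared 61.5% of its stretches with the pseudogene Gm16433, listed at 0.20, 0.22 and 0.20 TPM, and Ddx5 shared 18.5% with the pseudogene Gm12183 (2.79, 4.91 and 6.55 TPM).

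Counted over detected members, replicate 1 was most often lowest in the alignment-based table, and the library most often highest changed with the table and the scaling. The highest library was replicate 1 for 12, replicate 2 for 16 and replicate 3 for 19 of 47 members, against 36.7, 29.5 and 33.7% of detected protein-coding genes. The lowest was replicate 1 for 24, replicate 2 for 17 and replicate 3 for 6, against 37.4, 39.4 and 23.2%. Replicate 2 was most often highest in the read-based table (21 members, against 13 for replicate 3), with TMM scaling (22 against 17) and with DESeq2 scaling (23 against 15). In the same order, it was highest for 33.0, 36.2 and 36.3% of detected protein-coding genes. When TPM were rescaled without short and ribosomal features, 20 members were highest and 14 lowest in replicate 1. These numbers stand against 46.1 and 28.7% of detected protein-coding genes. The order of libraries rests on the table and the scaling, and the shares over all genes moved with them as well.

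Transcripts annotated as retaining an intron made up a median of 38.3% of the TPM of the 46 members of at least 1 TPM, against 25.7% over 10620 such protein-coding genes. Part of this lies in the annotation: 38 of the 46 have a retained-intron transcript, and among genes that have one the medians were 46.2% for the members and 46.8% for 6579 genes. The share reached 50% in 17 of 46 members, against 27.6% of genes. Among genes that have such a transcript it was 17 of 38 members, against 44.5% of genes. In the read-based table the medians among such genes were 51.1% for the members and 45.4% for 7509 genes. There 19 of 38 members reached 50%, against 43.8% of genes. The 5 highest were Ddx49 (88.1, 75.9 and 83.8%), Ddx11 (74.8, 78.7 and 77.6%), Ddx54 (77.4, 73.4 and 76.6%), Ddx50 (75.1, 74.3 and 73.7%) and Ddx39 (73.4, 72.6 and 63.7%). Of these, Ddx49, Ddx54 and Ddx50 act in ribosome assembly, and the level of Ddx54 was 9.77, 11.7 and 12.5 TPM. Ddx49, Ddx54 and Ddx39 overlap Homer3 (19.3 TPM), Gm43579 (2.18 TPM) and Adgre5 (17.9 TPM) on the opposite strand. Reads of these overlapping genes may be counted in the retained-intron shares, and their part was not tested. Ddx17, Ddx10, Ddx19b and Ddx28 have only protein-coding transcripts in the annotation, which fixes their share at 0. In 13 of 46 members the leading transcript was not a protein-coding one, against 35.8% of genes; in the read-based table it was 24 of 46, against 46.7%.

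**Figure D4:**
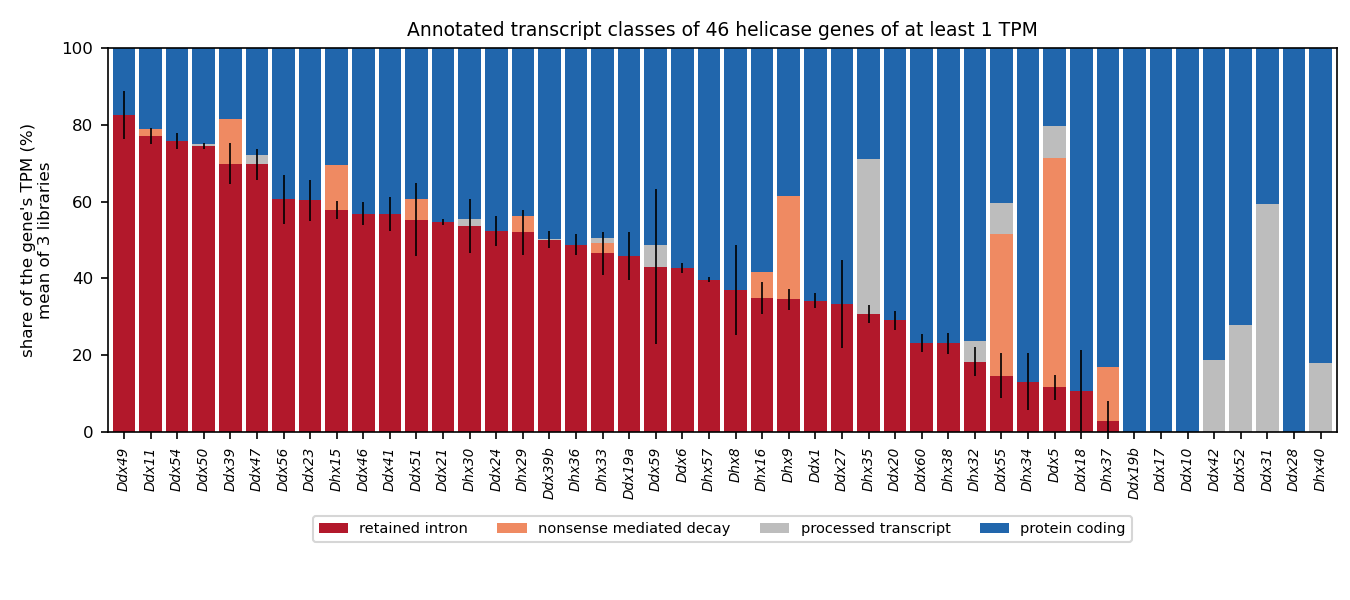
Share of each gene's TPM in the annotated transcript classes (bars, mean of 3 libraries, in %) for the 46 members of at least 1 TPM, ordered by the retained-intron share, whose SD is drawn as a black line. The share falls from 82.6% in Ddx49 to 0 in 8 genes at the right, which have no annotated retained-intron transcript, and Ddx5 stands out by its nonsense-mediated decay class of 59.8%. Ddx49, Ddx54 and Ddx39 overlap an expressed gene on the opposite strand, whose reads may be counted in their shares.

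A second measure, chosen after the annotated classes had been seen, asked which transcripts carry a whole intron of the gene's longest protein-coding transcript inside an exon. Such transcripts held at least 50% of the TPM in 8 of 46 members, against 7.13% of genes: Ddx5, Dhx30, Ddx46, Ddx41, Ddx51, Ddx54, Dhx9 and Ddx55. Among genes with an annotated retained-intron transcript it was 8 of 38 members, against 10.5% of genes. In the read-based table it was 6 of 46 members, against 5.57% of genes, with Dhx9 (43.6%) and Ddx55 (42.8%) under 50%. Ddx46, a helicase of early spliceosome assembly, kept an intron of 1618 nt, number 12 of 22, in 68.2, 65.0 and 66.3% of the TPM that spans it. Dhx30 kept intron 2 of 22, of 329 nt, in 73.2 ± 0.346%. Dhx9 kept intron 17 of 27, of 142 nt, in 40.9 ± 1.74%, through a transcript annotated as an NMD target. Dhx15 kept intron 9 of 13, of 471 nt, in 43.0 ± 1.94%. In the abundant Ddx60 the share was lower, with 24.5 ± 1.03% for intron 34 of 37. The 3 libraries differed by less than 5 percentage points in each of these introns. As for Ddx5, the shares do not separate a retained intron from one not yet spliced. Among the 5 members highest in the annotated retained-intron class, transcripts with a whole intron held 0% of the TPM in Ddx49 and 6.32% in Ddx50. They held 29.2% in Ddx11, 42.9% in Ddx39 and 52.5% in Ddx54.

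Ddx39b was also led by a transcript with intron sequence, though one that does not cover a whole intron. Ddx39b-204, annotated as retained intron, had 81.1, 88.1 and 83.2 TPM, or 50.1% of the gene, against 61.7, 62.2 and 69.1 TPM for the protein-coding Ddx39b-201. Its last exon ends 801 bases inside an intron of 2177 nt. A transcript ending there can stand for RNA with that intron still in place or for an early end, and the tables do not separate these.

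The 2 quantifications of the same reads gave like levels for most members. Over the 46 genes the median log2 ratio of read-based to alignment-based TPM was 0.20, against 0.36 over 10620 genes, and 3 members differed by more than 2-fold, against 17.3%. These were Dhx16, Dhx35 and Ddx1. Next came Ddx31, 1.86 times higher in the read-based table (13.8, 16.6 and 16.5 against 27.3, 30.7 and 29.0 TPM), and Dhx37, 1.76 times higher (6.82, 7.79 and 9.72 TPM there). Dhx16 had 20.1, 20.1 and 21.8 TPM in the alignment-based table and 68.3, 107 and 122 TPM in the read-based table. The difference was carried by 1 transcript, Dhx16-202 (retained intron, 825 nt), at 2.07, 1.43 and 1.38 TPM against 52.4, 88.1 and 104 TPM. Its first 155 bases are shown because they hold a repeat of GT, with the bases in capitals lying in stretches of 31 that also occur in transcripts of 2778 other genes.
Dhx16-202, bases 1 to 155: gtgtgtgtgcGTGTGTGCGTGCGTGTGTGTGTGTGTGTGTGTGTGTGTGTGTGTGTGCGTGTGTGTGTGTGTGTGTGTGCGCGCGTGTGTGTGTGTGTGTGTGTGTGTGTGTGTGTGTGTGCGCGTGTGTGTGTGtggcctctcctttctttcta
The main protein-coding form Dhx16-201 had no such stretch and was alike in both tables, with 9.34, 12.7 and 12.5 TPM against 8.18, 10.8 and 10.5 TPM. Whether the shared stretch is the source of the difference was not tested. Dhx35 had 12.9, 16.4 and 16.3 TPM against 35.4, 43.0 and 48.7 TPM, and here Dhx35-203, a processed transcript of 328 nt listed at 0 in the alignment-based table, had 16.6, 20.6 and 22.4 TPM in the other. Ddx1 had 24.2, 24.6 and 25.1 TPM in the read-based table, with 12.6, 13.8 and 14.9 TPM in the short protein-coding Ddx1-203. Neither of these short transcripts shared more than 1 stretch of 31 bases with another gene. The same transcript led in both tables for 28 of 46 members, against 6028 of 10620 protein-coding genes.

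**Figure D5:**
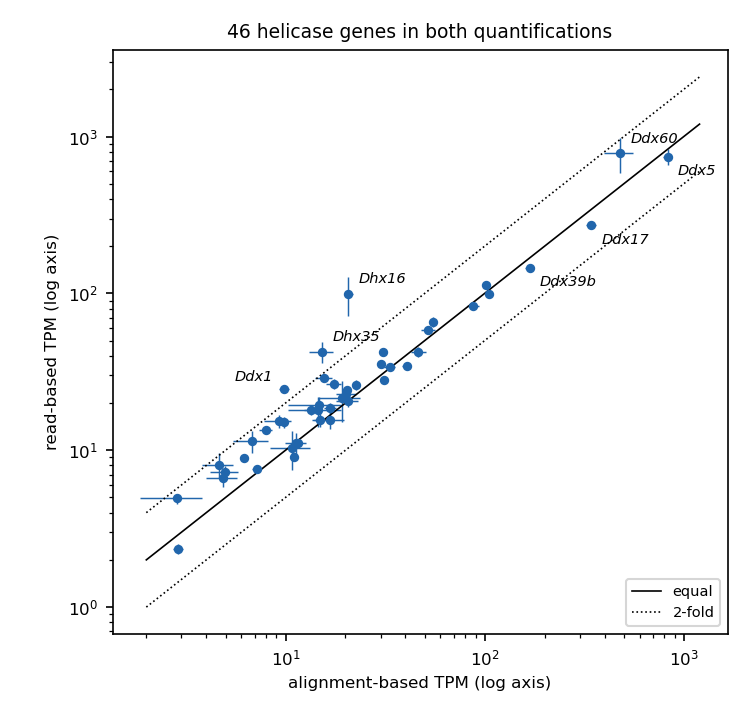
Mean TPM of the 46 members in the alignment-based (x) and read-based table (y), both on log axes, with SD over 3 libraries as error bars; the solid line marks equal values and the dotted lines 2-fold differences. Dhx16, Dhx35 and Ddx1 lie above the upper dotted line, and no member lies below the lower dotted line.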

How the data were processed

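Per gene and per transcript, the deposited tables give expected counts and TPM made by the authors from alignments, per the file headers and deposited notes. Another transcript table, also deposited by the authors, holds estimated counts and TPM obtained from reads without that step. All are on mm10 with GENCODE M21; the tools, their versions and the use of strand are not given in the sources used here. Reads in TPM are shared between transcripts by estimation, so transcript values are less certain than gene values.

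Members and gene lists were chosen with earlier results of these data known. Values in every library are given for the 3 highest and the lowest detected member of each role, members under 10 mean counts, the 5 with the largest SD, the 5 with the largest difference between tables, the 5 with the largest retained-intron share and related pairs; others were named for an intron, promoter or overlap after their values were seen. With 1 group no test was made. Levels used log2(TPM + 1). Counts were rounded for edgeR 4.0.16 (TMM, intercept only) and DESeq2 1.42.0 in R 4.3.3; the dispersion step was tested on simulated data. Other steps ran in Python 3.11.15 with pandas 2.3.3, numpy 2.4.6 and, for figures, matplotlib 3.10.9. RefSeq promoters (GRCm38.p6) matched 44 of 49 members; protein sequences were not used here. Alternatives covered the table, scaling, count minimum, pseudocount and leaving out each replicate.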

Additional observations from a re-analysis of the deposited data

How the results depend on the processing

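Leaving out each replicate in turn was run for the medians, the members' share of counts, the single-gene levels and the numbers with a retained-intron or intron-keeping share of at least 50%, not for library order or leading transcripts. The median level of all members ran from 4.02 to 4.17 (log2(TPM + 1)), the number with a retained-intron share of at least 50% from 15 to 18, and that with such an intron-keeping share from 7 to 8. TPM rescaled without features under 200 nt and ribosomal locus genes raised the median of detected protein-coding genes by 0.91 (log2), and the read-based table by 0.38; member medians moved with them. Rescaled, the medians were 4.95 for all members, 5.34 for spliceosome, 9.33 for transcription cofactors, 4.70 for ribosome assembly and 4.86 for export, translation and decay. In the read-based table they were 4.39, 5.20, 8.09 and 4.21 for the first 4, so cofactors were lower there and the others higher. A pseudocount of 0.1 gave 4.41 for spliceosome. The members' share of protein-coding counts was 0.959% in the read-based table. The order of libraries depended on scaling, and the share over detected protein-coding genes is given in brackets. Rescaled TPM put 20 members highest (46.1%) and 14 lowest (28.7%) in replicate 1, 11 highest (24.6%) and 16 lowest (32.4%) in replicate 3. TMM-scaled counts and DESeq2 size factors each put 8 lowest in replicate 2 (33.5 and 33.6%). The read-based table put 12 lowest in replicate 3 (26.2%). The median retained-intron share was 45.3% in the read-based table and 42.7% at a mean of at least 5 TPM, where the median intron-keeping share was 5.89%; the leading transcript was not protein-coding in 24 members of the read-based table. The cause of these changes was not tested. The median spread of members stayed below that of all genes under every setting run. No paired analysis was possible because there is 1 group. Depth limits the lowest members: Ddx4 rests on a mean of 24.7 counts, so its ratios between libraries carry little weight.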
